A study of Mus musculus with 6 samples.

Results

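Heme synthesis genes are the enzymes and mitochondrial carriers that build the oxygen-binding ring of haemoglobin. The set examined in mouse spleen was Alas2, Alad, Uros, Urod, Cpox, Ppox, Fech, Slc25a37 and Slc25a38, 9 genes in all, taken by the gene symbol that the platform annotation gives to each probe. Probes carried 8 of these symbols, out of 16593 symbols on the array. No probe carried the symbol Slc25a37, the gene of mitoferrin 1, which is therefore not analysed here. The 8 genes had 16 of the array's 25697 probes.

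Spleens labelled Rag2/pfp KO, with 3 samples, were compared with spleens labelled wild type, with 3 samples. Rag2 is needed to assemble antigen receptor genes in developing lymphocytes, and pfp stands for perforin, whose gene is now called Prf1. Strain, age, sex, the deleted part of each gene and any treatment are not given in the labels, nor do they say if each sample is a different animal. The p-values therefore set a difference only against the scatter of these samples, and that scatter may be in part technical. The extraction protocol names the Rag2/pfp mouse for all 6 samples, and the groups rest on the sample titles and genotype labels.

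Heme is made in a chain that starts and ends in the mitochondrion. Alas2 joins glycine to succinyl-CoA, Alad, Uros and Urod build and trim the ring in the cytosol, Cpox and Ppox oxidise it, and Fech inserts iron. Red cell precursors carry out most heme synthesis of the body, and in the mouse the red pulp of the adult spleen is a site of red cell formation. Alas2 is the form of the first enzyme used by red cell precursors, whereas Alas1 serves other tissues, and the erythroid factor GATA1 is known to act on Alas2.

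Promoter stretches are shown for the members whose RefSeq window holds a GATA sequence, because the members are described together below and this is the sequence of their best-known erythroid regulator. Windows of 250 bases before to 50 bases after an annotated start were searched on both strands for the letters AGATAA as well as the letters AGATAG, the variant TGATAA and the variant TGATAG. RefSeq (GRCm38.p6) gave 9 windows for 7 of the members, and 3 windows, of Alas2, Uros and Cpox, held a match. No window of Fech or Slc25a37 was available, so these genes were not searched. Among all 32851 windows of this length, 29.8% held a match. The 250 bases before the start follow, 5′ to 3′ on the gene's strand, with the matches in capitals. They lie at chrX:150547167-150547416 on the plus strand for Alas2, at chr7:133702501-133702750 on the minus strand for Uros and at chr16:58669958-58670207 on the plus strand for Cpox.
Alas2: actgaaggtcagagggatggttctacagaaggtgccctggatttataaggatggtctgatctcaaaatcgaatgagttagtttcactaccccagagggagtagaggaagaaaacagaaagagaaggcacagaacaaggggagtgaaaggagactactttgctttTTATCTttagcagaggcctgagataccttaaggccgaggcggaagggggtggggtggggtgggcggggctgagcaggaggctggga
Uros: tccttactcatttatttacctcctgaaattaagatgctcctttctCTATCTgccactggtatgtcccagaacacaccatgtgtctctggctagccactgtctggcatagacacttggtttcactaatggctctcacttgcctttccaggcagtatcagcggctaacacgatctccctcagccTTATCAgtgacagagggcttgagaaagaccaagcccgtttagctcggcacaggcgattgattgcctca
Cpox: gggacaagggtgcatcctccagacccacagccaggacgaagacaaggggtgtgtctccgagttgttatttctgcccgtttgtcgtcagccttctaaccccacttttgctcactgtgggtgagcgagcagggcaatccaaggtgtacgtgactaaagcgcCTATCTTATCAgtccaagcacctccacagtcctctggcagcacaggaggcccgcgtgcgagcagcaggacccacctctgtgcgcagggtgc
The Alas2 match begins at position -86 from the start, where -1 is the last base before it. The Uros stretch belongs to the downstream of 2 annotated starts, and its matches begin at -205 and -68. In Cpox the matches at -91 and -86 overlap by their last and first base, and a further match begins at position 5 after the start, outside the printed stretch. The CACCC box, searched as CACCC on both strands, was found in 5 of the 9 member windows and in 57.5% of all windows. A match describes these letters and not a bound site, and the arrays do not say which start was used.

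A probe counts as detected at a detection p-value under 0.05, a measure that the array software takes against negative control beads. Knockout arrays had 12084 to 12595 detected probes and wild-type arrays 12545 to 13149. The Rag2 probe was detected on no array and gave no check of the labels. Prf1 was detected on all 6 arrays by both of its probes. The brighter read 10.98, 12.05 and 11.41 log2 on the knockout arrays and 10.89, 10.99 and 11.55 on the wild-type arrays. Both probes had a higher mean in the knockout, by 0.34 ± 0.32 and 0.42 ± 0.31 log2 (SE), with overlap between the groups, so Prf1 signal was not lower in the samples labelled knockout. Whether these probes lie in the deleted part of Prf1 is not given in the sources used here, and knockout and wild type below are the groups as labelled. The 8 tested B cell markers all passed as lower, with a median of -4.43 log2, and 9 of the 11 tested T cell markers did, with a median of -3.70, against 2.88% of all genes called lower. Knockout replicate 2 differed from the other 5 arrays in Xist, at 4.88 and 5.13 log2 on its 2 probes against 7.13 to 9.41, and in the Y-linked gene Eif2s3y, at 8.30 against 4.59 to 4.82. By these genes it read as male and the other 5 arrays as female, so it did not share an animal with the other knockout replicates. The part of sex in the differences below was not tested. Values below are background-corrected, quantile-normalized log2 signals unless said otherwise, and differences are knockout minus wild type on that scale, which understates changes of weak signals. In whole spleen, more cells of a type and more RNA per cell cannot be told apart.

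Every tested heme synthesis probe had a higher mean in the knockout, by 0.64 to 1.59 log2, and none passed the test across all probes. The filter kept 13 of the 16 probes, all 13 detected on all 6 arrays, with at least 1 probe for each of the 8 genes. The remaining 3, of which 2 are Cpox probes and 1 is a Fech probe, were detected on no array. The median of the 13 differences was 0.78 log2, against 0.03 over all 12885 tested probes, of which 52.9% lay above 0. With limma and Benjamini-Hochberg adjustment, 0 of the 13 were called higher and 0 lower at an adjusted p under 0.05, against 0.978% called higher and 2.94% called lower, 3.92% in either direction, of all tested probes. At an unadjusted p under 0.05, 9 of the 13 were higher and 0 lower, against 8.88% and 9.21% of all tested probes. On 9 of the 13, all 3 knockout values lay above all 3 wild-type values, as on 12.4% of all tested probes, and on 0 of the 13 they lay below, as on 12% of all tested probes. Probes of the same gene are not independent. By the brightest tested probe of each gene, 7 of the 8 genes did not overlap, with the knockout higher, against 13.2% of all genes.

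The first enzyme, Alas2, condenses glycine and succinyl-CoA and sets the pace of heme production in red cell precursors. Its probe read 14.85, 14.47 and 14.61 log2 on the knockout arrays and 13.99, 13.99 and 13.82 on the wild-type arrays. All 3 knockout values lay above all 3 wild-type values. In the deposited signal these are 36339, 19402 and 21606 in the knockout and 18202, 16639 and 13109 in wild type. The difference was 0.71 ± 0.22 log2 (SE), or 1.64-fold with a 95% interval of 0.20 to 1.22 log2, and did not pass (limma adjusted p = 0.126). Alas2 lies on the X chromosome, and its value on knockout replicate 2, the array without detected Xist, was the lowest of the knockout values and above every wild-type value.

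The ubiquitous form Alas1 ran the other way. It read 11.14, 12.11 and 12.17 log2 on the knockout arrays and 12.53, 12.74 and 12.62 on the wild-type arrays. The groups did not overlap, with the knockout lower, and the difference of -0.83 ± 0.31 log2 (SE) did not pass (limma adjusted p = 0.189). Knockout replicate 1 was the lowest array, and the Alas1 difference was -0.485 log2 without it. Within each array, Alas2 minus Alas1 was 3.71, 2.36 and 2.44 log2 in the knockout and 1.46, 1.25 and 1.20 in wild type. Only the change of this difference between groups can be read, since 2 probes are not on 1 scale. It was 1.54 log2 larger in the knockout (exact permutation test, two-sided, p = 0.1, the smallest that 3 against 3 arrays allow). It was 1.11 without knockout replicate 1 and 1.49 to 1.77 without any other array. The second planned pair, Slc25a37 against its ubiquitous relative Slc25a28, could not be formed, and Slc25a28 differed by -0.19 ± 0.30 log2 (adjusted p = 0.813).

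Alad, which joins a pair of aminolevulinic acid molecules into the first small ring, read 13.91, 14.05 and 14.06 log2 on the knockout arrays and 13.16, 13.27 and 13.68 on the wild-type arrays. Knockout and wild type lay apart, with wild-type replicate 3 closest to the knockout arrays. The difference was 0.64 ± 0.24 log2 (SE), or 1.56-fold (limma adjusted p = 0.189).

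Uros closes the chain of rings into uroporphyrinogen. Its brighter probe, ILMN_2452383, read 12.16, 11.18 and 10.86 log2 on the knockout arrays and 10.20, 10.22 and 10.37 on the wild-type arrays. There was no overlap, and knockout replicate 1 was the highest array. The difference was 1.14 ± 0.34 log2 (SE), or 2.20-fold, and 0.75 log2 without that array (adjusted p = 0.104 and 0.0955). Its other probe, ILMN_2498173, read 10.26, 7.60 and 8.21 in the knockout and 8.01, 7.41 and 7.04 in wild type. Here the groups overlapped, since knockout replicate 2 lay below wild-type replicate 1. That difference was 1.20 ± 0.60 log2 (adjusted p = 0.347) and 0.41 without knockout replicate 1.

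Urod, which trims the side chains of the ring to give coproporphyrinogen, read 14.94, 14.68 and 14.54 log2 on the knockout arrays and 13.94, 13.93 and 14.08 on the wild-type arrays. All knockout values lay above all wild-type values. The difference was 0.74 ± 0.23 log2 (SE), or 1.67-fold (limma adjusted p = 0.114).

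Cpox, the oxidase of the mitochondrial intermembrane space, had 1 detected probe. It read 9.34, 7.05 and 7.71 log2 on the knockout arrays and 7.02, 6.69 and 5.602 on the wild-type arrays. The lowest knockout value, of replicate 2, lay just above the highest wild-type value, of replicate 1. Its difference of 1.59 ± 0.57 log2 (SE), or 3.02-fold, was the largest among the 13 probes (adjusted p = 0.175), and was 0.93 without knockout replicate 1. In the authors' deposited log2 values, which have no background correction, it was 0.93 as well. On wild-type replicate 3 the probe was close to background, at a detection p-value of 0.0288. Without that array the difference was 1.175 log2.

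Ppox, the oxidase that makes protoporphyrin, had 2 probes that differed in behaviour. The brighter, ILMN_2826816, read 12.81, 12.41 and 12.04 log2 on the knockout arrays and 11.29, 11.29 and 11.51 on the wild-type arrays, without overlap. Its difference of 1.06 ± 0.26 log2 (SE), or 2.08-fold, had an adjusted p of 0.0601. The dimmer, ILMN_2706938, read 9.76, 8.19 and 6.83 in the knockout and 8.06, 7.32 and 7.38 in wild type. Knockout replicate 3 was the lowest of all 6 arrays on it. The difference was 0.68 ± 0.62 log2 (limma adjusted p = 0.649) and turned to -0.07 without knockout replicate 1.

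Fech, the ferrochelatase that inserts iron to complete heme, overlapped between the groups on both of its tested probes. Its probe ILMN_1228534 read 9.85, 7.71 and 7.04 log2 on the knockout arrays and 8.16, 7.33 and 6.93 on the wild-type arrays. Knockout replicate 1 was the highest array, and knockout replicates 2 and 3 lay within the wild-type range. The difference was 0.73 ± 0.65 log2 (SE; adjusted p = 0.638), and -0.10 without knockout replicate 1. The other tested probe, ILMN_2710731, read 9.02, 7.18 and 6.003 in the knockout and 7.64, 6.34 and 5.89 in wild type, a difference of 0.78 ± 0.71 log2 (adjusted p = 0.649), or -0.03 without that array.

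Slc25a38, the mitochondrial carrier that brings in glycine for the first step, had 3 probes, each without overlap between the groups. ILMN_2946901 read 11.24, 11.13 and 10.53 log2 on the knockout arrays and 9.10, 9.40 and 10.19 on the wild-type arrays. It differed by 1.40 ± 0.33 log2 (SE), or 2.65-fold, with an adjusted p of 0.0534, the smallest among the members. ILMN_2946905 read 13.95, 13.50 and 13.65 in the knockout and 12.86, 12.93 and 13.16 in wild type. It differed by 0.71 ± 0.23 log2 (adjusted p = 0.139). ILMN_1256420 read 11.76, 11.19 and 10.54 in the knockout and 10.08, 9.90 and 10.43 in wild type, a difference of 1.02 ± 0.33 log2 (adjusted p = 0.132). All 3 probes had higher knockout values, and the sizes ran from 0.71 to 1.40 log2, with 95% intervals that together reach from 0.18 to 2.16.

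**Figure D1:**
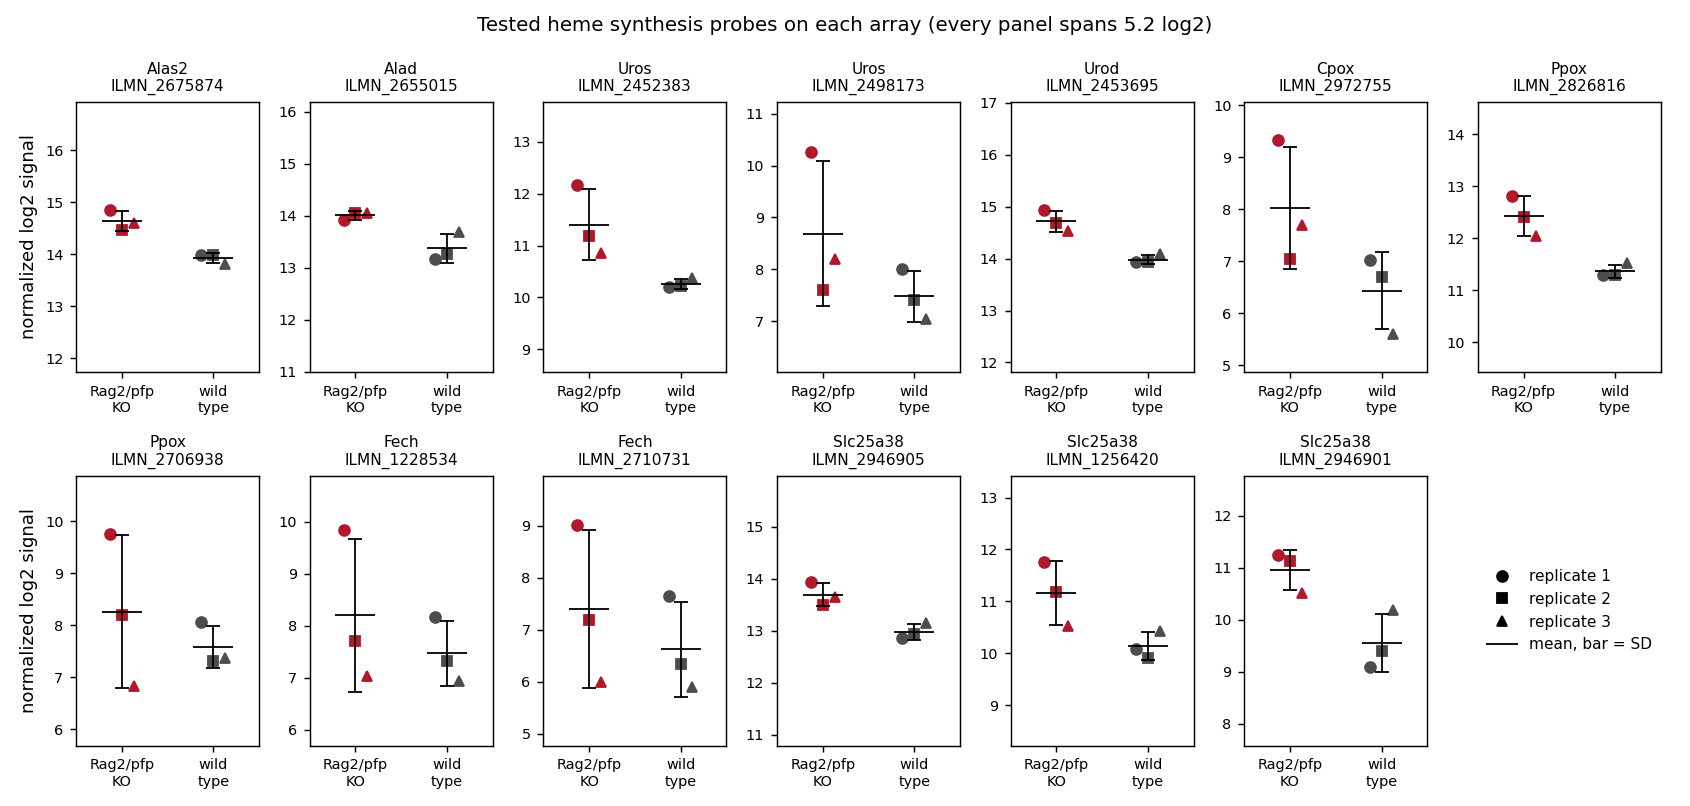
Normalized log2 signal of the 13 tested probes of heme synthesis genes on each array, in pathway order, with 3 Rag2/pfp KO arrays (red, left) and 3 wild-type arrays (grey, right) in every panel; symbols mark replicates and bars the mean and SD. On 9 probes all knockout points lie above all wild-type points, and on the Fech probes and the dimmer Uros and Ppox probes the groups overlap.

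**Figure D2:**
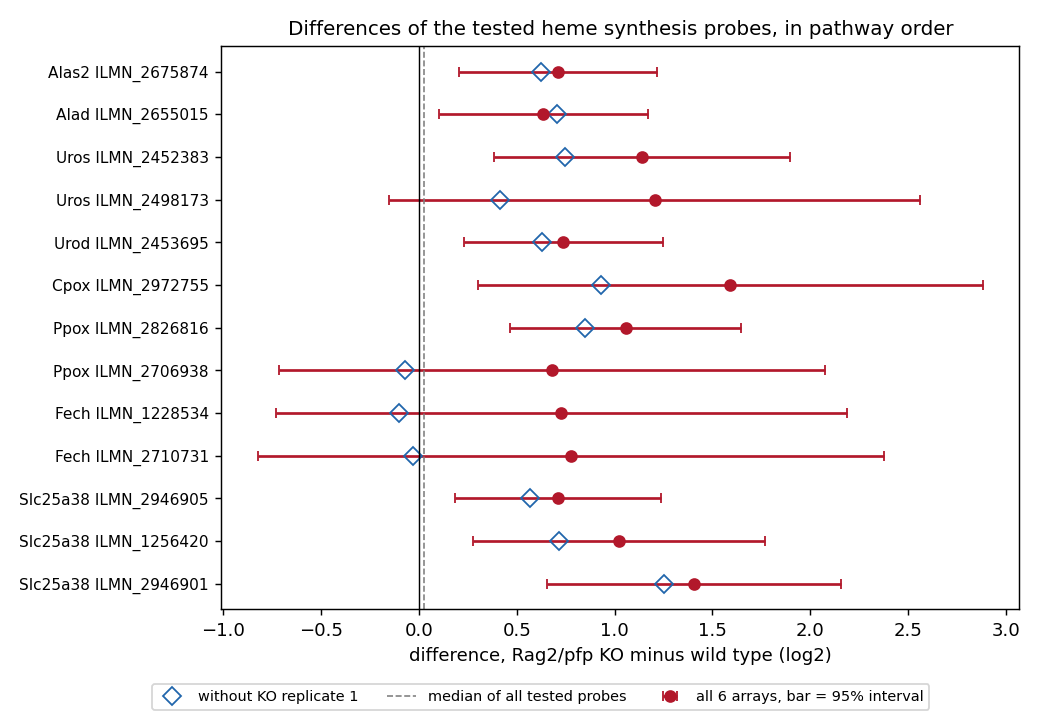
Difference between Rag2/pfp KO and wild type in log2 for each tested heme synthesis probe, with the 95% interval of the limma fit (red) and the difference without knockout replicate 1 (blue diamonds). All 13 points lie above 0 with all 6 arrays, whereas the dimmer Ppox probe and both Fech probes move to between -0.10 and -0.03 without that replicate.

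Knockout replicate 1 carried much of the spread. On the dimmer Uros probe, the Cpox probe, the dimmer Ppox probe and both Fech probes it exceeded the mean of knockout replicates 2 and 3 by 1.96 to 2.48 log2, where 90% of all tested probes lay between -1.18 and 1.24. On Alas2, Alad, Urod and the brightest Slc25a38 probe the same gap was -0.14 to 0.37. Wild-type replicate 1 was likewise the highest wild-type array on those 5 probes. Both arrays were also the brightest of their group before normalization. The median signal over all probes was 158, 142 and 144 on the knockout arrays and 164, 151 and 151 on the wild-type arrays. The part of array brightness in the gap was not tested. Averaged over the brightest probe of the 8 genes and set relative to wild type, the knockout arrays stood at 1.501, 0.66 and 0.59 log2 and the wild-type arrays at 0.10, -0.02 and -0.08. Without knockout replicate 1 the 13 probes had a median of 0.63 log2 with 10 above 0, and 9 did not overlap, against 21.8% of all tested probes in that smaller comparison.

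Calls of members depended on the settings, of which background correction and scaling are described here and the others further below. In the authors' deposited log2 values, which matched quantile-normalized signal without background correction to within 5e-07, Alas2 differed by 0.71, Urod by 0.73 and the brighter Ppox probe by 1.03 log2, and these 3 were called (limma adjusted p = 0.0481, 0.0442 and 0.0433), against 1.01% of all tested probes called higher there. Scaling moved the split of all calls, while all 13 member differences stayed above 0. Over all tested probes, 126 were higher and 379 lower with quantile normalization, 49 and 661 with median centring, and 16 and 857 without normalization between arrays. Over all tested probes the median difference was -0.16 with median centring and -0.33 without normalization. The median of the 13 probes was 0.98 log2 above it in both, against 0.75 above it with quantile normalization. In both, 7 of the 13 did not overlap, against 6.03% of all tested probes with median centring and 2.37% without normalization.

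Markers of several cell types also stood higher or lower in the knockout. Erythroid markers, with 19 tested of 28 listed, had 18 differences above 0, against 53.2% of all genes, and a median of 1.02 log2. For 12 of the 19 the groups did not overlap, with the knockout higher, against 13.2% of all genes. Of the 19, 4 were called higher (Epor, Klf1, Ank1 and Add2, named because they were called), against 1.04% of all genes. Add2 was detected on only 4 of the 6 arrays. Gata1, the gene of the factor named above, overlapped between the groups, at 1.08 ± 0.46 log2 (SE; limma adjusted p = 0.2575). The mean of the erythroid markers relative to wild type was 1.33, 0.63 and 0.76 log2 on knockout replicates 1, 2 and 3. Replicate 1 was thus highest, as for the heme genes. Their summed level, in linear normalized units, ran from 186071 to 237797 in the knockout and from 147019 to 154307 in wild type, and none of the tested markers was undetected on all 3 knockout arrays. That sum holds probes near the top of the arrays' signal range, and whether they were saturated was not tested. Hba-a1, an alpha globin gene, read 15.88, 15.88 and 15.88 log2 on the knockout arrays and 15.88, 15.93 and 15.93 on the wild-type arrays. Glycophorin A, several globin genes and Ahsp had no probe under those symbols. The same sum over the 8 heme genes ran from 85013 to 105392 in the knockout and from 52598 to 58472 in wild type, without overlap.

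Cycling-cell genes also stood higher, with all 10 tested differences above 0, against 53.2% of all genes, 1 called higher (Mcm7), against 1.04% of all genes, and means of 1.37, 0.54 and 0.41 log2 on knockout replicates 1 to 3. Their sum ran from 35202 to 58466 in the knockout and from 23940 to 27927 in wild type. Red pulp macrophage markers, of cells that take up old red cells and recycle their iron, had a median of 0.01 log2 over 11 tested genes with none called, and their sums overlapped, at 58412 to 79439 in the knockout and 53000 to 83988 in wild type. Megakaryocyte and platelet markers had 7 of 7 above 0, against 53.2% of all genes, none called and a median of 0.82 log2, with sums of 16052 to 21879 in the knockout and 9303 to 13805 in wild type. Their means were 0.568, 0.928 and 0.985 log2 on knockout replicates 1 to 3, so that replicate 1 was lowest, unlike in the heme genes. B cell sums were 695 to 932 in the knockout and 28279 to 33065 in wild type, with Ms4a1, Fcmr and Cr2 undetected on every knockout array. T cell sums were 595 to 1032 in the knockout and 13431 to 15747 in wild type, with Cd3e, Cd6, Cd28 and Trat1 undetected on every knockout array. Neutrophil sums were 39186 to 101326 in the knockout and 175906 to 192374 in wild type. The part of these cell types in the heme gene differences was not tested.

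**Figure D3:**
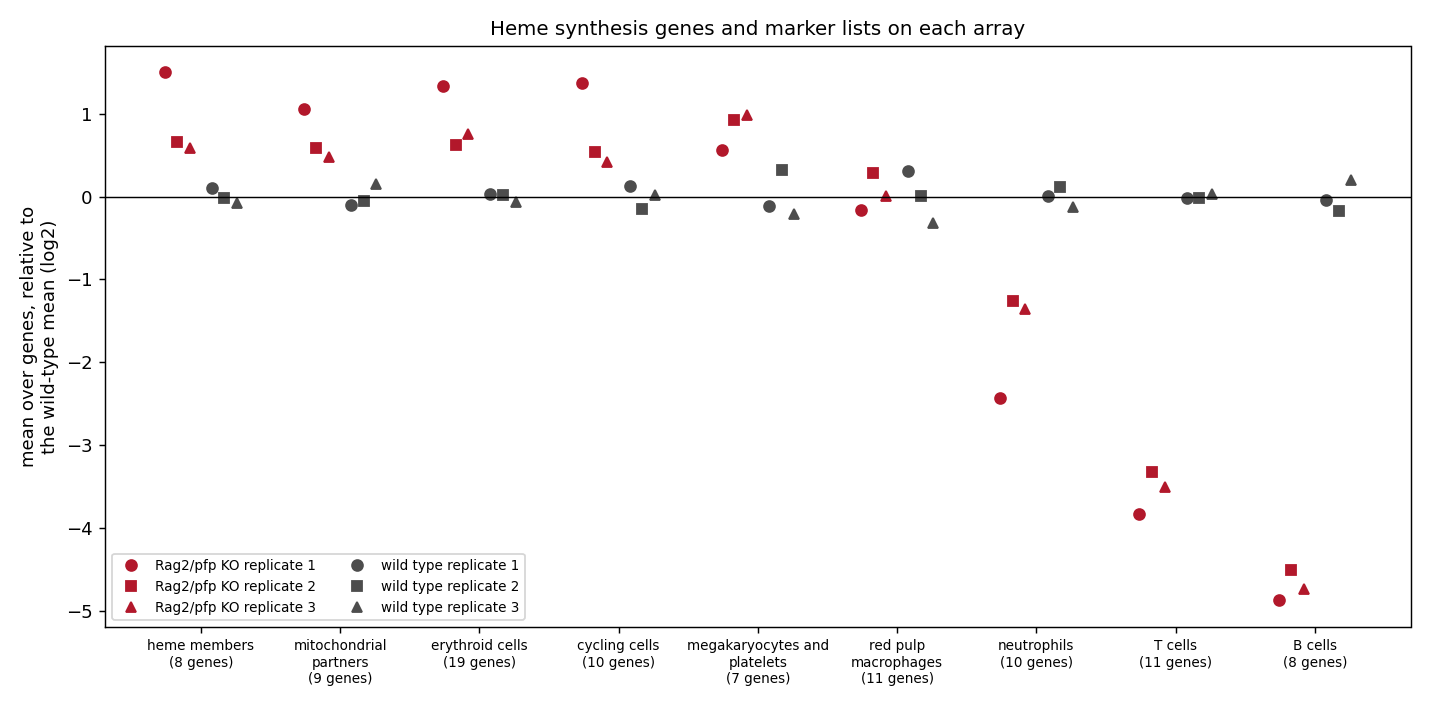
Mean over the tested genes of each list, in log2 relative to the wild-type mean, for each Rag2/pfp KO array (red, left of each pair) and wild-type array (grey). Heme members, mitochondrial partners, erythroid and cycling lists lie above 0 on all 3 knockout arrays with replicate 1 highest. The megakaryocyte and platelet list also lies above 0 on all 3, with replicate 1 lowest. B cell, T cell and neutrophil lists lie below -1 on the knockout arrays.

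Around the pathway, 49 other genes of heme metabolism were listed, 44 had a probe and 37 were tested. By the brightest probe of each gene, 27 of the 37 lay above 0, against 53.2% of all 9158 genes, and the median was 0.39 log2, against 0.03 over all genes. Among the 37, 3 were called higher, where 1.04% of all genes were, and 1 was called lower, where 2.88% were. The groups did not overlap, with the knockout higher, for 19 of the 37, against 13.2% of all genes.

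Slc6a9, the GLYT1 transporter that takes up glycine from outside the cell, rose, with the largest increase of the 37. It read 13.34, 13.06 and 13.13 log2 on the knockout arrays and 11.40, 11.90 and 12.17 on the wild-type arrays. Every knockout array lay above every wild-type array, and the difference was 1.36 ± 0.26 log2 (SE; limma adjusted p = 0.0248). Leaving out knockout replicate 3, or any 1 of the wild-type arrays, ended the call (adjusted p up to 0.131 over the alternatives). Of the other genes that supply glycine or succinyl-CoA, none was called, and Ogdh, a subunit of the enzyme complex that makes succinyl-CoA, differed by 0.01 ± 0.27 log2.

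Fam210b, a mitochondrial protein that aids iron import during red cell maturation, was the 1 called gene among 9 tested mitochondrial partners, of which 8 lay above 0 and 6 did not overlap. Over all genes, 1.04% were called higher, 53.2% lay above 0 and 13.2% did not overlap with the knockout higher. It read 10.57, 10.34 and 10.00 log2 on the knockout arrays and 8.67, 8.84 and 9.40 on the wild-type arrays. All knockout values were above all wild-type values, by 1.33 ± 0.28 log2 (SE; limma adjusted p = 0.0336). Leaving out knockout replicate 1, replicate 2 or any 1 wild-type array ended the call, as did median centring, no normalization and no detection filter (adjusted p up to 0.177). Tmem14c, a carrier of porphyrinogen into the mitochondrial matrix, differed by 0.51 ± 0.25 log2 on its brightest probe (adjusted p = 0.340) and by 0.90 and 0.50 on the others. The outer membrane protein gene Tspo differed by 0.09 ± 0.27.

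Glrx5, a glutaredoxin of iron-sulfur cluster assembly on which ferrochelatase depends for its cluster, was the 1 called gene among 6 tested in that list, all 6 above 0, with the same shares over all genes. It read 13.44, 12.95 and 13.35 log2 on the knockout arrays and 12.09, 12.23 and 12.29 on the wild-type arrays. The groups lay apart by more than the spread within either, at 1.04 ± 0.24 log2 (SE; limma adjusted p = 0.0438). Leaving out knockout replicate 1, replicate 3 or any 1 wild-type array ended the call, as did median centring, no normalization and keeping only probes detected on all arrays (adjusted p up to 0.217). Iscu, the scaffold of the cluster, differed by 0.15 ± 0.23 log2.

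Iron entry and heme handling showed no further higher calls. Tfrc, the transferrin receptor, differed by 0.81 ± 0.35 log2 (adjusted p = 0.255), and Slc11a2, the iron transporter DMT1, by 0.73 ± 0.27 (adjusted p = 0.178), both without overlap between the groups. The heme transporter Slc48a1 differed by 0.33 ± 0.23 and Flvcr2 by -0.29 ± 0.31 log2. Bach1, a heme-binding repressor, differed by 0.95 ± 0.28 (adjusted p = 0.106) and Eif2ak1, the heme-regulated kinase HRI, by 0.68 ± 0.28 (adjusted p = 0.235). The biliverdin reductase gene Blvrb differed by 0.70 ± 0.24 (adjusted p = 0.157) and the heme-binding protein gene Hebp1 by 0.86 ± 0.26 (adjusted p = 0.114).

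Hp, haptoglobin, the scavenger of free haemoglobin that neutrophils also store, fell. Its brightest probe read 9.70, 11.18 and 10.23 log2 on the knockout arrays and 12.51, 12.24 and 11.78 on the wild-type arrays. The groups did not overlap, at -1.80 ± 0.38 log2 (SE; limma adjusted p = 0.0352), and a second of its 3 probes was called, at -1.58 ± 0.36 (adjusted p = 0.0470). Neutrophil markers were lower beside it, with 6 of 10 called lower and a median of -1.80 log2, against 2.88% of all genes called lower, and the part of neutrophils in the Hp difference was not tested. For the brightest probe, testing all probes whatever their detection ended the call, as did leaving out knockout replicate 1, replicate 3 or any 1 wild-type array (adjusted p up to 0.163). The second probe's call ended in 8 of 17 alternatives, among them the authors' log2 values, at -1.12 log2 (adjusted p = 0.0782), with adjusted p up to 0.193.

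**Figure D4:**
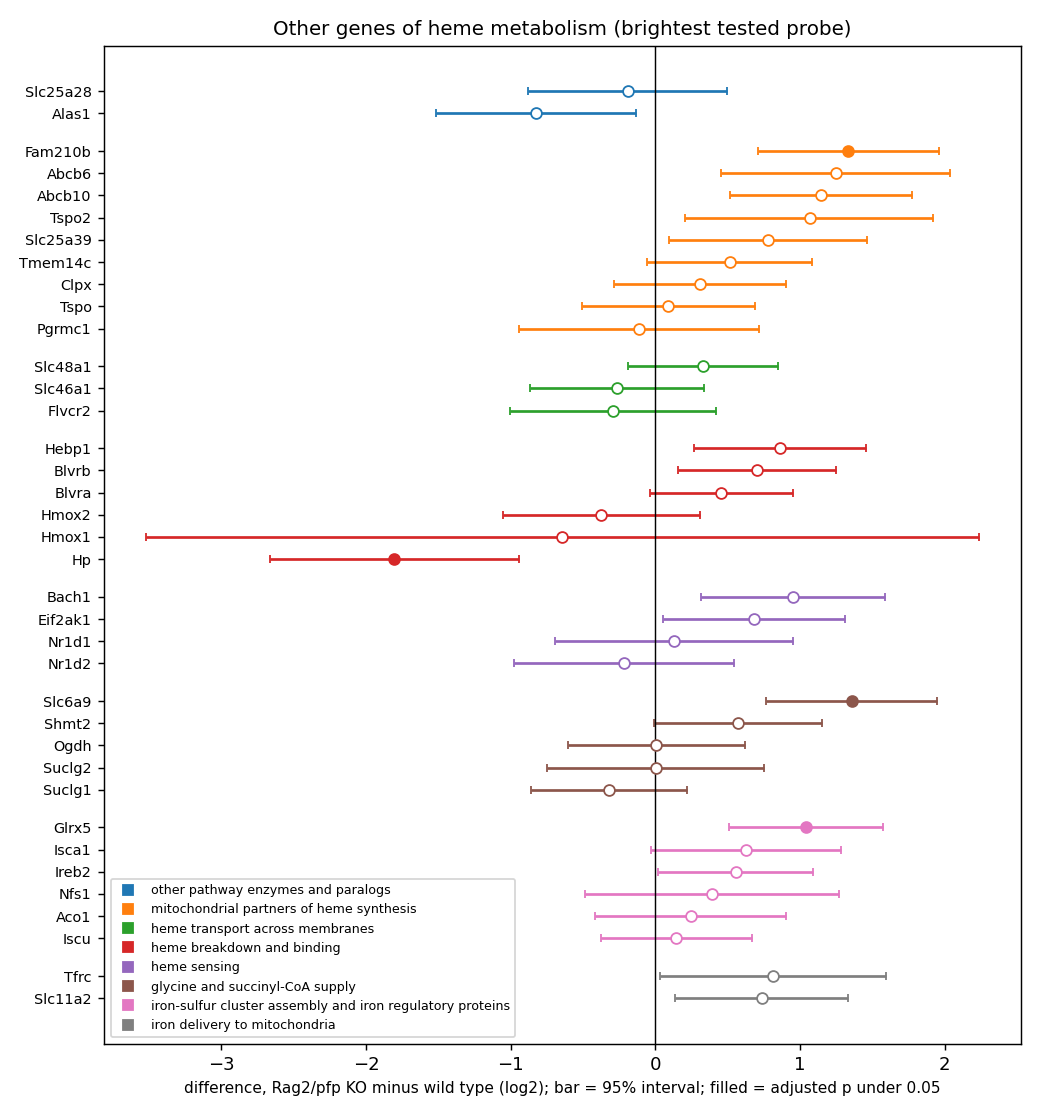
Difference between Rag2/pfp KO and wild type in log2 for 37 other genes of heme metabolism, grouped by role, by the brightest tested probe of each, with 95% intervals. Filled points mark Slc6a9, Fam210b and Glrx5 above 0 and Hp below 0, the 4 genes called.

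Outside these lists, the 5 genes whose profile over the 6 arrays was most like the mean standardised profile of the heme genes were Pcyt1b, Aurka, Cenpn, Nmral1 and Prc1, at Pearson correlations of 0.995 to 0.997. The 6 arrays fall into the groups compared, and 230 of 9037 genes exceeded 0.95, so this is a description only. Aurka, Cenpn and Prc1 encode proteins of mitosis. Aurka read 12.09, 11.36 and 11.46 log2 on the knockout arrays and 10.66, 10.58 and 10.61 on the wild-type arrays, with knockout replicate 1 highest as in the heme genes.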

How the data were processed

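Total RNA of 6 spleen samples was labelled with biotin and hybridised to Illumina MouseRef-8 v2 arrays, per the labels' protocols. One table, per the file headers, holds each probe's intensity and detection p-value as the authors deposited them, not normalized. The submitters' processing notes name GenomeStudio 2011.1. A second deposited table holds log2 values that matched quantile-normalized log2 signal to within 5e-07, with a median of 7.24 on every array and no centring of genes.

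Intensities were corrected and normalized with neqc (limma 3.58.1, R 4.3.3, offset 16). Quantile normalization removes a shift shared by most transcripts. Probes detected (p-value under 0.05) on at least 3 of 6 arrays, 12885, were tested with lmFit and eBayes, two-sided, with group as the only term. Calls use an adjusted p (Benjamini-Hochberg) under 0.05. Having 6 arrays limits the precision. The fit was tested on simulated data with independent noise for each probe, which does not cover deviations that probes of an array share. Symbols came from the platform annotation, updated by gene number (RefSeq GRCm38.p6); 23978 probes had 1 symbol and 1719 were unnamed here.

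Members and lists were chosen with earlier results of these data known. The rule for named genes takes all member probes, Alas1, Slc25a28 and Hmox1, from each related list up to 3 called genes and, where fewer than 2 were called, the 2 of highest mean, and the 5 genes of most similar profile. Titles share replicate numbers, but deviations from group means correlated at 0.49, -0.28 and -0.04 for numbers 1 to 3, so they were not taken to pair samples. The sample descriptions are numbered otherwise, and only the samples of replicate 1 share a number there too. Whether these samples form a pair was not tested. The replicate block follows the numbers of the titles. Alternatives were other normalizations, filters and variance models, array weights, the replicate block and each array left out. The files name no slide, so a slide block was not run.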

Additional observations from a re-analysis of the deposited data

How the results depend on the processing

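The 13 heme synthesis probes stayed on the same side of the threshold and of 0 in 199 of 221 values over 17 alternatives, were newly called in 19 and changed sign in 3. With all arrays and the settings as described 0 were called higher, against 0.978% of all tested probes. Without background correction 3 were called higher, and 3 in the authors' log2 values, against 1.01% of all tested probes in each. With a mean-variance trend 4 were called higher and with array weights 2, against 1.37% and 1.99%. With the replicate block 5 were called higher, against 2.45% of all tested probes, where 887 were called in either direction. Leaving out 1 array gave 0 to 1 called higher, against 0.0543% to 1.59% of all tested probes. The median was then 0.63 to 1.33 log2, the highest without knockout replicate 3. In either direction, 166 to 678 of all tested probes were called. None of the 13 was called lower in any setting. The 3 changes of sign came without knockout replicate 1. Leaving out 1 array, Fech ILMN_1228534 ranged over -0.101 to 1.306, Fech ILMN_2710731 over -0.030 to 1.483 and Ppox ILMN_2706938 over -0.071 to 1.388 log2, each lowest without knockout replicate 1 and highest without knockout replicate 3. Slc25a28 ranged over -0.391 to 0.099, above 0 only without knockout replicate 1. Hmox1 ranged over -1.758 to 0.865, above 0 at 0.152 without knockout replicate 3 and at 0.865 without wild-type replicate 1. Of the 49 related probes, 5 were called, against 3 with detection on all arrays, 2 with no detection filter, 8 with a mean-variance trend, 8 with array weights, 8 with the replicate block and 0 to 6 without 1 array. All tested probes called numbered 505 of 12885, or 3.92%. They numbered 873 without normalization between arrays, 323 of 10778 with detection on all arrays and 346 of 25697 with no detection filter. With a mean-variance trend 626 were called, with array weights 790 and with the replicate block 887. Fewer samples or probes entered the settings that left out an array or required detection; for the rest the cause was not tested. Among the 13, intervals were widest on the Fech, Cpox and dimmer Uros and Ppox probes. The 3 member probes not above background on any array give no difference.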

Other observations

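Hmox1, the heme oxygenase that opens the ring and frees its iron, varied more between arrays of a group than between the groups. It read 7.86, 10.76 and 6.93 log2 on the knockout arrays and 12.15, 8.02 and 7.30 on the wild-type arrays. Knockout replicate 2 and wild-type replicate 1 stood above the other 4 arrays, and the difference was -0.64 ± 1.28 log2 (SE; limma adjusted p = 0.859). Hmox2 and Blvra were chosen after their values were seen. Hmox2, the constitutive form, differed by -0.37 ± 0.30 log2, and Blvra, which reduces biliverdin, by 0.46 ± 0.22, neither called.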
